A study of Mus musculus with 48 samples.

Results

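The proteasome subunit genes are the 40 genes of the deposited liver count table whose symbols begin with Psma, Psmb, Psmc, Psmd or Psme followed by a number, out of 22353 genes. Psmb8 and Psmb9, which replace constitutive catalytic subunits during an immune response, were left out by the rule, and a mean of at least 1 CPM over all 48 libraries was required. CPM are counts scaled to a common library total. Psmb11, at 0.0032 CPM, lay outside this minimum, and Psma8, at 1.10 CPM, lay just inside it. All 40 genes passed the filter on low counts, which kept 13646 genes for testing. Liver RNA was sequenced from C57BL/6 mice homozygous for a floxed Bmal1 gene (symbol Arntl) and carrying Cre recombinase under the aP2 promoter (KO), and from littermate controls (WT). The design text gives males 4 to 6 months old. All mice, in both genotypes, spent 36 h in constant darkness before they were killed in darkness at 0, 4, 8, 12, 16 or 20 h. The 48 libraries, 25 WT and 23 KO, formed groups of 4, but at 16 h the labels put 5 in WT and 3 in KO. Because the aP2 promoter is a driver used for fat cells, liver is not the tissue that the deletion was aimed at, and KO stands here for the label.

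The proteasome is the protease that degrades ubiquitin-tagged proteins. Its barrel, the 20S core, has outer rings of alpha subunits (Psma genes) that gate the entry and inner rings of beta subunits (Psmb genes), some of which carry the catalytic sites. The 19S particle caps the barrel. Its ATPases (Psmc genes) unfold the substrate and its non-ATPase subunits (most Psmd genes) bind and remove ubiquitin. Alternative caps, the activators (Psme genes), open the core without ATPases. The liver turns over much protein between feeding and fasting, and circadian clock factors act at many liver promoters through E-boxes. Bmal1 is one of these factors.

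Totals without albumin lay between 12841969 and 13009797 counts. In KO livers Arntl was not lower than in WT on average (log2 change 0.30 ± 0.16 SE, adjusted p = 0.35), and its median fell from 33.1 CPM at 0 h to 3.24 CPM at 8 h in KO and from 37.5 to 1.91 CPM in WT. At 4 h its median was 9.71 CPM in KO (6.08 to 12.6) and 18.9 CPM in WT (12.4 to 34.1), and at 12 h 6.12 CPM in KO (1.58 to 11.5) and 1.91 CPM in WT (0.818 to 3.41). Tests were edgeR's quasi-likelihood F tests, adjusted p-values follow Benjamini and Hochberg over all genes tested, and a gene passed at an adjusted p under 0.05. The protocols describe 1 mouse for every library. Counts of Xist, the transcript of the silenced X chromosome of females, were between 3029 and 13969 in every library and no Y-linked gene checked exceeded 1 count, which goes against the stated sex. The labels name liver as tissue and source, but adipocyte as cell type. Summed levels of 7 hepatocyte markers, 23847 to 49584 CPM, and of 4 adipocyte markers, 6.18 to 84.9 CPM, were those of liver. WT replicate 3 at 0 h (adrenal markers summed at 99.0 CPM, median of all libraries 2.32), KO replicate 2 at 0 h (pancreas markers at 251 CPM, median 7.83) and KO replicate 2 at 16 h stood apart and are called the 3 unusual libraries. KO replicate 2 at 16 h had the lowest scaling factor of all libraries (0.892) and the fewest genes with a count (16120). WT replicate 5 at 16 h held lymphocyte markers at 1214 CPM (median 17.9) but was not put among the 3. The libraries also differed in how their log2 ratio to the gene mean followed the GC share of the transcripts, with a correlation across genes between -0.606 and 0.538. This trend differed by time of collection. Its group medians were 0.29 in KO and 0.158 in WT at 0 h, and -0.284 and -0.219 at 8 h. At 8 h it was between -0.509 and -0.16 in KO and between -0.562 and -0.099 in WT. Uncorrected differences between these times are therefore mixed with it. A correction for transcript GC share and length, chosen after seeing the data, is therefore given beside the results it bears on. In whole tissue, fewer cells of a type and less RNA per cell cannot be told apart.

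Promoter windows from RefSeq (build GRCm38.p6), from 250 bases before to 50 after each gene's start, matched 33 of the 40 genes; Psma8, Psmb1, Psmb2, Psmb7, Psmc3, Psmd3 and Psmd7 had no entry. Motifs were searched on both strands. The E-box CACGTG, the motif of BMAL1 with its partner, was in the windows of 4 members (12.1%) and of 11.7% of the other tested genes. The share of members was thus near the background. The 4 sequences are shown because the E-box is the motif of the factor whose gene was targeted in these mice. Capitals mark the motif and each is written on the gene's strand.
Psma4, chr9:54950699-54950744, plus strand: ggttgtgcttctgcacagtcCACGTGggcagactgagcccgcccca
Psmb10, chr8:105938483-105938528, minus strand: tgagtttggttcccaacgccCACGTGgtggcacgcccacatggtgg
Psmd9, chr5:123228119-123228164, plus strand: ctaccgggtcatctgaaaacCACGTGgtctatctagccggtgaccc
Psme3, chr11:101316149-101316194, plus strand: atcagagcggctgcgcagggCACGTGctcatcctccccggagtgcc
The fitted 24 h curves of these genes, described next, peaked at 7.16 h for Psma4, 10.7 h for Psmb10, 21.04 h for Psmd9, whose rhythm test depended on the settings, and 21.6 h for Psme3.

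The antioxidant response element, searched as TGACNNNGC, is the motif of NFE2L1 and NFE2L2, of which the former raises proteasome genes when the proteasome is impaired. It was in the windows of 6 members (18.2%), against 17.0% of the other tested genes. The sites in the catalytic genes that hold it and in Psmd9 are shown with the motif in capitals.
Psmb5, chr14:54618014-54618062, minus strand: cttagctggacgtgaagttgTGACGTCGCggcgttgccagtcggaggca
Psmb6, chr11:70525328-70525356, plus strand: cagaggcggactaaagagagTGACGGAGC
Psmd9, chr5:123228139-123228187, plus strand: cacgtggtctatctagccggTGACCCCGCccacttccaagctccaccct
The other members with it were Psmc6, Psmd12 and Psme4. The CCAAT box was in 12 windows (36.4%, against 42.9%). The heat shock element, searched as GAANNTTC, was in 1 window, that of Psmb5 (3.0%, against 7.2%). The D-box, searched as TTATGTAA or TTACGTAA, was in none of the 33, against 1.0%. A letter match is a description and no evidence of binding.

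Levels of the members covered a wide range. Per kilobase of exon, the highest mean levels over all libraries were those of Psmb6 (203 CPM per kb), Psmb3 (199.7 CPM per kb), Psmb4 (169 CPM per kb), Psma4 (161 CPM per kb) and Psmb7 (157 CPM per kb), which are all core genes. The lowest were Psma8 (0.65 CPM per kb), an alpha subunit known from testis, and Psmd10 (9.09 CPM per kb) and Psmd5 (11.2 CPM per kb), which are chaperones of 19S assembly. Among the ATPases the levels per kilobase were close to each other, between 58.8 for Psmc2 and 91.2 for Psmc1. The median within-group SD of the members was 0.27 on the log2 scale, beside 0.414 over all genes tested. Psma8 (0.576), Psmd3 (0.548), Psmd9 (0.431) and Psmc6 (0.416) were above the latter. Genes of a like level were not compared, so a low spread particular to the members was not tested.

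With both genotypes fitted to the same 24 h curve, 28 of the 40 members (70.0%) passed the test of a rhythm, beside 43.7% of all genes tested. Amplitudes were small. The median distance from mean to peak was 0.23 on the log2 scale for the 28 members, against 0.32 for all genes that passed. The peak times fell into 2 main sets. Of the 28 members, 14 peaked between 5.25 and 10.7 h and 11 peaked in the opposite part of the cycle, between 21.04 and 0.93 h. Psmc3, Psmd12 and Psmd14 peaked between these, at 2.42 to 2.91 h. From 2 to 10 h, 16 of the 28 members peaked, beside 1976 of the 5962 genes that passed. For the hours of the 2 sets themselves the share over all genes was not counted. Whether such a split is particular to the members was not tested. The first set held 10 of the core genes, the catalytic subunit Psmb10, the activators Psme1 and Psme2, and Psmd10. The second set held no core gene: it was Psmc1, Psmc2, Psmc4, Psmc5, Psmd1, Psmd2, Psmd4, Psmd7, Psmd9, Psmd11 and Psme3. After the GC and length correction 27 members passed the test, beside 46.3% of all genes, 23 of them the same. There 14 peaked at 4.82 to 10.1 h, namely 11 core genes with Psmb10, Psme1 and Psme2. Another 12 peaked at 20.8 to 1.25 h, none of them a core gene, and Psmc4 at 2.06 h. Without the 3 unusual libraries 22 members passed. That count stands without the share of all genes in the same fit, so it does not tell a loss of members from a general loss.

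**Figure D1:**
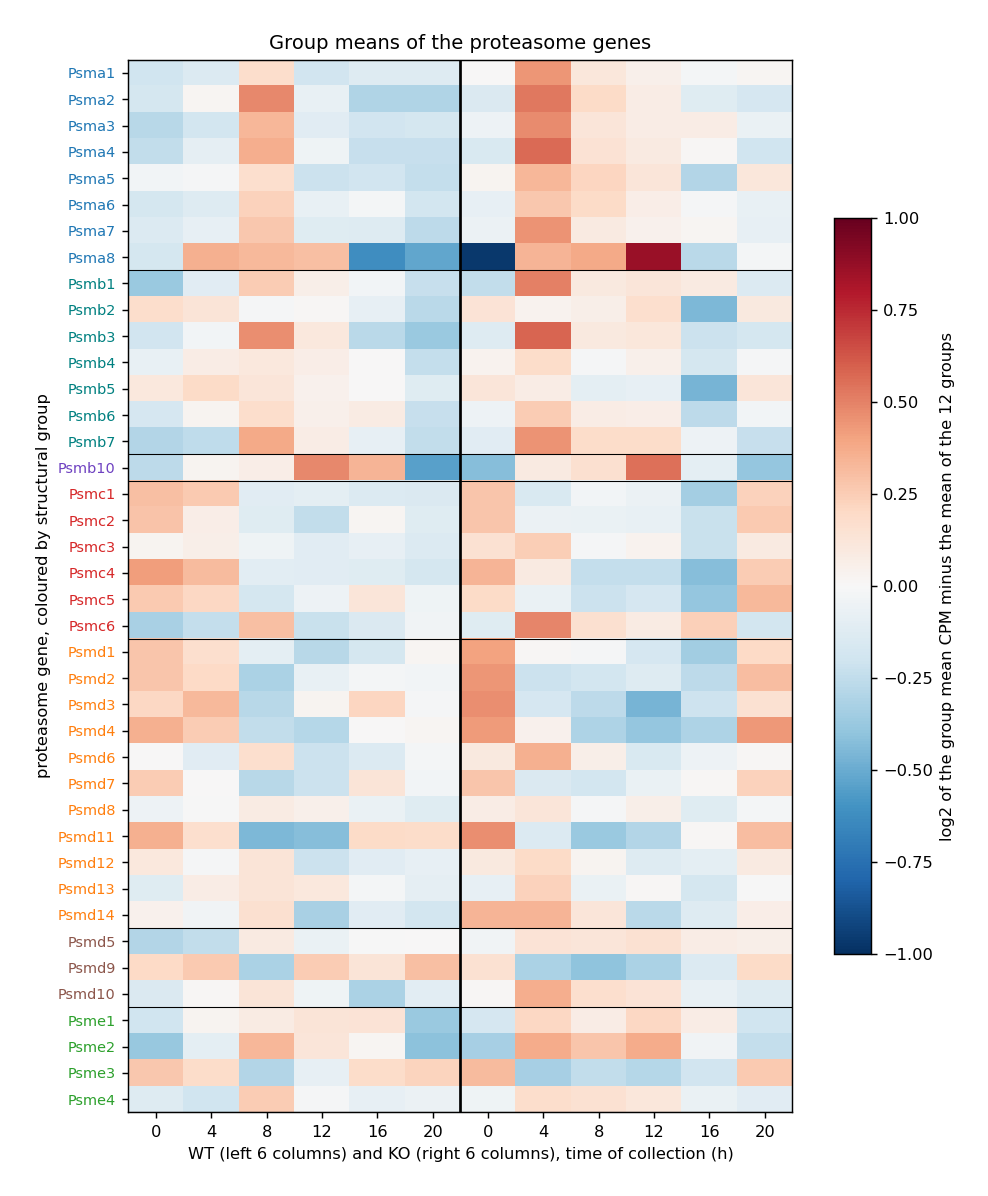
Group means of the 40 members (rows, by structural group) at the 6 times in WT (left) and KO (right), as log2 of the mean CPM minus the mean of the 12 groups (red above, blue below; 3 to 5 libraries a group). Many core genes are highest at 8 h in WT and at 4 h in KO, while Psmd11, Psmd4, Psmc4 and Psme3 are highest at 0 or 20 h.

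**Figure D2:**
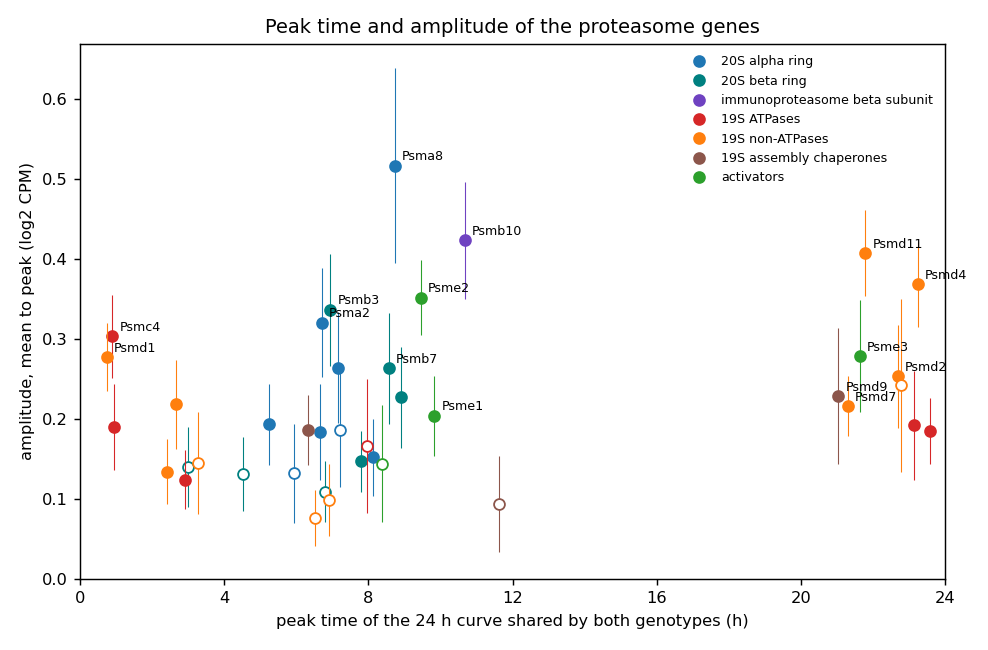
Peak time (h) and amplitude (log2, mean to peak, with its standard error) of the 24 h curve shared by both genotypes, for each member, coloured by structural group. Filled points passed the test; these lie in a set at 5.25 to 10.7 h and a set at 21.04 to 0.93 h, with 3 between.

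Of the alpha ring, 6 of 8 genes passed the shared rhythm test and all 8 had fitted peaks between 5.25 and 8.74 h. Psma2 (mm9 chr13:14705521-14719674) had the lowest p of the ring. It measured 108, 128, 87.5 and 109 CPM in the 4 KO libraries at 0 h, and 105, 122, 89.4 and 109 CPM in WT. At 8 h it measured 108, 136, 150.1 and 152 CPM in KO and 121, 248, 150.7 and 148.5 CPM in WT. The 8 h libraries were mostly higher, with an overlap between the times, and 1 WT library was far above the rest. The amplitude was 0.32 ± 0.07 (SE) on the log2 scale, a 1.56-fold range from trough to peak, with adjusted p = 0.000857. With the GC and length correction the amplitude was 0.22 ± 0.05 (adjusted p = 0.0035). Psma4, Psma5, Psma6 and Psma7 passed with amplitudes of 0.15 to 0.26 and peaks at 5.25 to 8.12 h. With the correction the amplitudes were 0.18 for Psma4, 0.16 for Psma5, 0.05 for Psma6 and 0.23 for Psma7. Psma6 did not pass after the GC and length correction (adjusted p = 0.571). Psma8 had the largest amplitude of all members, 0.52 ± 0.12 (adjusted p = 0.00594), at the lowest level, between 0.153 and 2.33 CPM, where counting error is large. Psma1 and Psma3 did not pass (adjusted p = 0.216 and 0.0869), and their peaks moved by -3.72 and -4.5 h under the correction.

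Of the 7 beta ring genes 4 passed. Psmb3 (mm9 chr11:97564713-97574814), a structural subunit, measured 139, 149.7, 112 and 126 CPM in WT and 122, 166, 119 and 143 CPM in KO at 0 h. At 8 h it measured 152, 301, 195 and 181 CPM in WT and 127, 158, 172.5 and 185 CPM in KO. All 4 WT libraries at 8 h were above those at 0 h, while the KO libraries overlapped between these times. The amplitude was 0.34 ± 0.07 with a peak at 6.94 h and adjusted p = 0.000755. Of the catalytic subunits, Psmb6 (caspase-like site) and Psmb7 (trypsin-like site) passed with amplitudes of 0.15 ± 0.04 and 0.26 ± 0.07 and peaks at 7.79 and 8.57 h. Psmb5 (chymotrypsin-like site) had an amplitude of 0.14 ± 0.05 and did not pass (adjusted p = 0.0951); with the GC and length correction it did (adjusted p = 0.0214). Psmb1 passed with adjusted p = 0.0147, and at 0.0705 with the correction it did not. Psmb2 and Psmb4 passed with the correction alone (adjusted p = 0.0382 and 0.00305, against 0.0923 and 0.08).

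**Figure D3:**
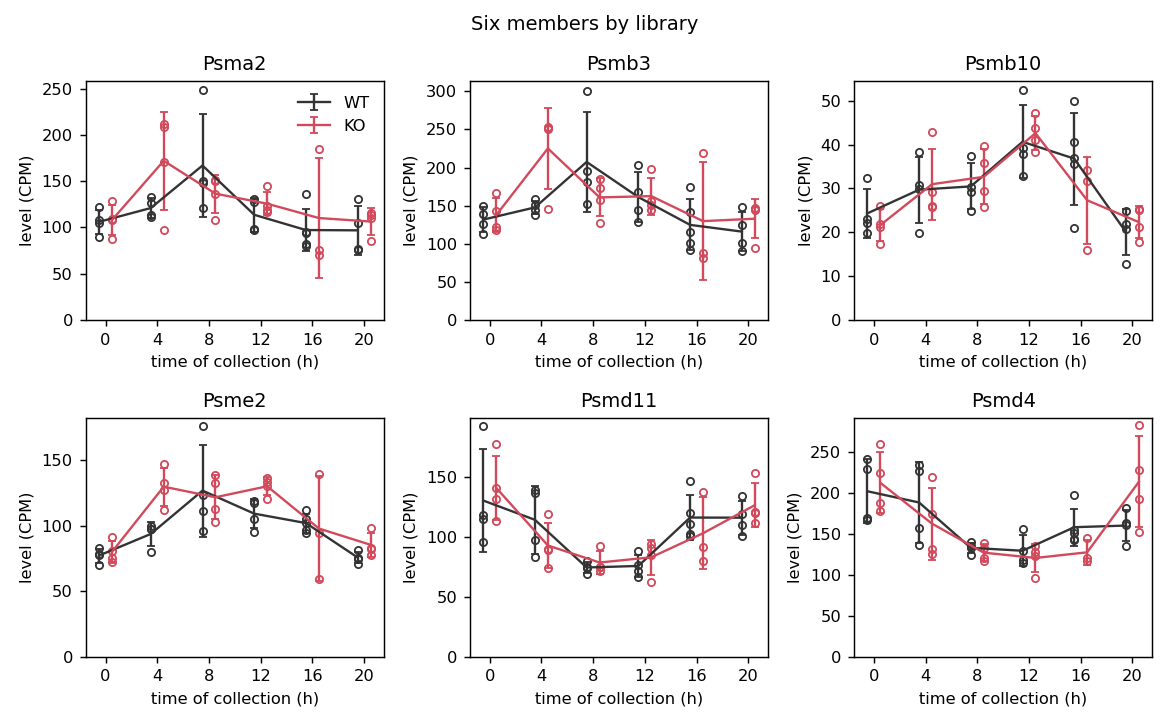
Levels (CPM, axes from 0) of Psma2, Psmb3, Psmb10, Psme2, Psmd11 and Psmd4 by time of collection in WT (dark) and KO (red). Circles are libraries, lines join group means and bars are SD; Psmd11 falls from 0 to 8 h while Psmb10 rises from 0 to 12 h.

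In the 19S particle, 9 of the 17 base and lid genes passed with peaks between 21.3 and 0.93 h, and 3 passed with peaks at 2.42 to 2.91 h. The others did not pass. The difference in peak time between core and 19S genes was not tested. Psmd11 (mm9 chr11:80242117-80286750), a lid subunit at the contact of the particle with the core, had the lowest p of all members. It measured 193, 118, 115 and 95.6 CPM in WT and 177, 113, 132 and 141 CPM in KO at 0 h. At 8 h it measured 74.1, 79.8, 74.7 and 69.2 CPM in WT and 71.8, 92.75, 74.6 and 75.3 CPM in KO. Every library at 0 h was above every library at 8 h. Here and for the other genes given by library, the 2 times were chosen after their values were seen. Most of these genes were named for a low p of a rhythm test. A lack of overlap is therefore a description that adds nothing to that test, and its share over all genes was not counted. The amplitude was 0.41 ± 0.05, a 1.76-fold range, with a peak at 21.8 h and adjusted p = 5.63e-07.

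Psmd4 (mm9 chr3:94836616-94846536), a ubiquitin receptor of the particle, measured 241.5, 229, 167 and 169 CPM in WT and 187, 259, 178 and 224 CPM in KO at 0 h. At 12 h it measured 118, 115, 129 and 156 CPM in WT and 96.5, 123, 134 and 128 CPM in KO. No library of the latter time reached the lowest of the former. Its amplitude was 0.37 ± 0.05 with a peak at 23.2 h and adjusted p = 1.52e-06. Psmd1 (mm9 chr1:87960962-88059363), a large scaffold subunit, measured 159.5, 170.5, 137 and 133 CPM in WT and 175, 167, 144 and 167 CPM in KO at 0 h. At 12 h it measured 100.0, 83.4, 115 and 111 CPM in WT and 88.35, 113, 117 and 123 CPM in KO. Here too the 2 times did not overlap, and the amplitude was 0.28 ± 0.04 (peak at 0.73 h, adjusted p = 1.13e-05). Psmd2, its partner scaffold, and Psmd7, a lid subunit, passed with amplitudes of 0.25 ± 0.06 and 0.22 ± 0.04. With the GC and length correction these were 0.23 ± 0.06 and 0.11 ± 0.03, and both still passed (adjusted p = 0.00163 and 0.0246). Psmd14, the deubiquitinase of the lid, passed with 0.22 ± 0.06 at 2.66 h. Psmd3, Psmd6, Psmd8 and Psmd13 did not pass (adjusted p = 0.0849 to 0.252). Their fitted peaks were at 22.8, 3.28, 6.52 and 6.92 h, the last 2 within the hours of the core genes.

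Of the 6 ATPases, 5 passed the shared rhythm test. Psmc4 (mm9 chr7:28826726-28835120) measured 152, 170.3, 144 and 133 CPM in WT and 132, 174, 114 and 146 CPM in KO at 0 h. At 8 h it measured 102, 108, 113 and 93.8 CPM in WT and 95.6, 106.5, 84.35 and 93.6 CPM in KO. The lowest library at 0 h was 113.6 CPM and the highest at 8 h was 112.6 CPM, so the times were only just apart. The amplitude was 0.30 ± 0.05 with a peak at 0.88 h and adjusted p = 4.43e-05. Psmc1, Psmc2 and Psmc5 peaked at 23.2 to 0.93 h with amplitudes of 0.19 each. Psmc3 peaked at 2.91 h and passed narrowly (adjusted p = 0.043); with the correction neither Psmc3 (0.145) nor Psmc5 (0.0852) passed. Psmc6 was the exception among the ATPases, with its fitted peak at 7.96 h and adjusted p = 0.248. That peak moved by -7.55 h under the correction.

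The interferon-inducible parts peaked last of the first set. Psmb10 (mm9 chr8:108459628-108462292), which replaces Psmb7 in the immunoproteasome, measured 23.0, 19.8, 32.4 and 22.2 CPM in WT and 21.2, 17.3, 26.1 and 22.0 CPM in KO at 0 h. At 12 h it measured 37.9, 32.9, 39.2 and 52.5 CPM in WT and 43.8, 41.05, 38.3 and 47.2 CPM in KO. All libraries at 12 h were above all at 0 h. The highest at 0 h, 32.4 CPM, was the WT library with the adrenal markers, which also held macrophage markers at 989.8 CPM (median 254). Its amplitude was 0.42 ± 0.07, a 1.80-fold range, with a peak at 10.7 h and adjusted p = 3.17e-05. In the WT library at 16 h with the lymphocyte markers it was at 35.5 CPM, inside the range of its group (20.9 to 49.9 CPM).

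Psme2 (mm9 chr14:56206278-56209950), a subunit of the interferon-inducible cap, measured 83.1, 70.2, 77.4 and 78.6 CPM in WT and 72.75, 75.8, 91.4 and 80.6 CPM in KO at 0 h. At 12 h it measured 119, 105.0, 95.3 and 118 CPM in WT and 130.4, 133, 120.5 and 137 CPM in KO. The times did not overlap. The amplitude was 0.35 ± 0.05 with a peak at 9.46 h and adjusted p = 6.61e-07. Its partner Psme1 passed with 0.20 ± 0.05 at 9.83 h. Psme3, which forms a nuclear cap, peaked at 21.6 h with 0.28 ± 0.07, opposite to that pair. Psme4, a single-chain cap, did not pass (adjusted p = 0.272). Of the 19S assembly chaperones, Psmd10 passed at 6.31 h (amplitude 0.19 ± 0.04; adjusted p of 0.1 with the correction). Psmd9 passed narrowly at 21.04 h (0.23 ± 0.09, adjusted p = 0.0473) and Psmd5 did not pass (adjusted p = 0.379). Psmd9 did not pass in 37 of the alternative fits, among them DESeq2's (adjusted p = 0.0512).

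The summed core genes rose from 1831 ± 165 CPM (SD, n = 4) at 0 h to 2483 ± 593 CPM at 8 h in WT, and from 1969 ± 221 CPM to 2709 ± 507 CPM at 4 h in KO. The summed 19S base and lid was 2209 ± 250 CPM at 0 h and 1772 ± 185 CPM at 12 h in WT, and 2338 ± 220 and 1802 ± 156 CPM in KO. The ratio of the core sum to the 19S sum was 0.831 ± 0.044 at 0 h and 1.32 ± 0.232 at 8 h in WT (SD, n = 4), and 0.841 ± 0.027 and 1.205 ± 0.11 in KO. The 8 libraries at 0 h lay between 0.781 and 0.887 and the 8 libraries at 8 h between 1.05 and 1.63, so that these 2 times, chosen after their values were seen, did not overlap in either genotype. Other times spread more widely. The ratios of KO at 16 h (0.816 to 1.64) and of WT at 20 h (0.839 to 1.17) overlapped with both, and those of KO at 4 h (0.895 to 1.57) with those at 8 h. With the GC and length correction the ranges were 0.836 to 0.893 at 0 h and 1.03 to 1.46 at 8 h. These sums were not tested, since their genes were chosen with results in view.

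**Figure D4:**
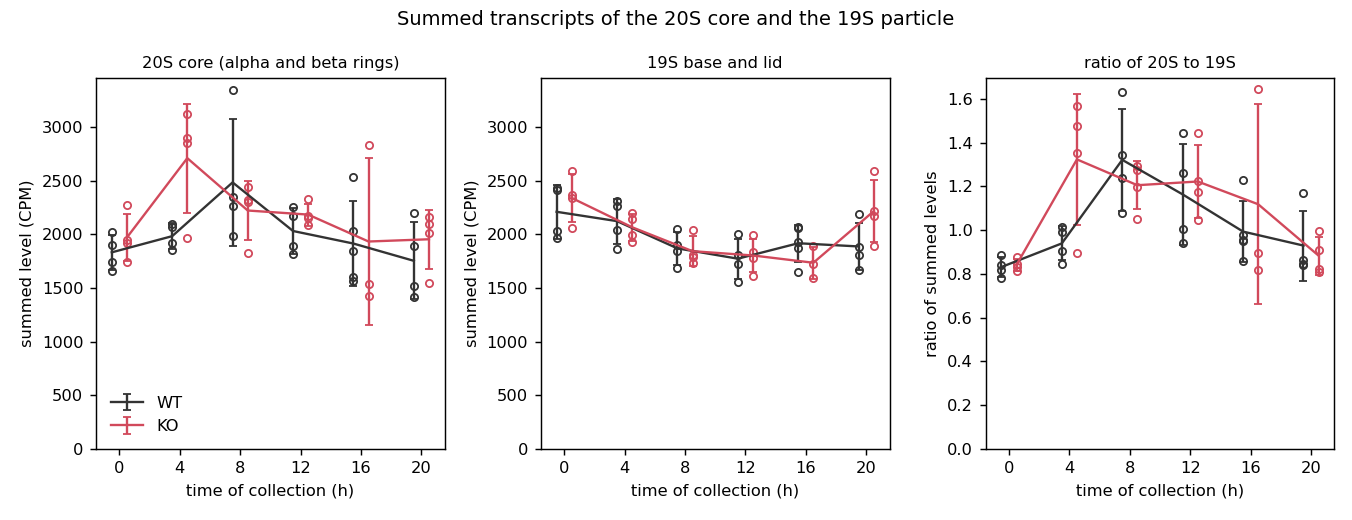
Summed levels (CPM) of the 15 core genes (left) and the 17 genes of the 19S base and lid (middle), and their ratio (right), by time in WT (dark) and KO (red). Circles are libraries and bars SD; at 0 h all ratios lie between 0.781 and 0.887, and at 8 h between 1.05 and 1.63.

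In each genotype on its own fewer members passed. In WT 9 members (22.5%) had a rhythm, beside 16.3% of all genes, and in KO 12 members (30.0%), beside 17.0%. Those that passed in both were Psmb10, Psmc4, Psmd1, Psmd4, Psmd7, Psmd11 and Psme2. Psma2 and Psmb3 passed in WT alone, and Psma8, Psmc2, Psmd2, Psmd14 and Psme3 in KO alone. The difference itself was tested, and no member passed the test of a rhythm difference, nor had any an unadjusted p under 0.05 (DESeq2 called 0 as well; of all genes 0.00733% passed in edgeR). The lowest p-values there were those of Psmb6 (unadjusted p = 0.0569), Psma8 (0.178) and Psmd14 (0.199). With the GC and length correction 13 members passed in WT, beside 23.3% of all genes, and 14 in KO, beside 20.2%. Psmd7 then passed in neither genotype (adjusted p = 0.162 in WT and 0.245 in KO), and Psma8 no longer passed in KO (0.103). Psmb6 and Psme1 then passed in both. Single libraries weighed on the counts in each genotype. Leaving out WT replicate 2 at 20 h gave 16 members in WT, beside 21.9% of all genes. Leaving out KO replicate 3 at 16 h gave 14 in WT (19.5% of all genes) and 23 in KO (26.6% of all genes). Without the 3 unusual libraries 7 passed in KO, beside 12.7% of all genes. The counts over all genes thus moved in the same direction as those of the members.

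Averaged over the 6 times, no proteasome gene differed between KO and WT past the test, while 1.4% of all genes did (1.58% with the GC and length correction, and again no member). At an unadjusted p under 0.05 there were 5 members, 4 higher and 1 lower in KO (12.5%, beside 17.1% of all genes), and DESeq2 called 0. The median change of the members was 0.06 on the log2 scale, beside -0.005 for all genes, with 28 of 40 above 0, beside 48.9% of all genes. All 8 alpha ring genes were above 0, with a median of 0.155. With the GC and length correction Psma2 (-0.046) and Psma8 (-0.004) were below 0, and the other alpha ring genes were at 0.035 to 0.183. Psma5 had a change of 0.17 ± 0.08 (SE; adjusted p = 0.239), Psma1 one of 0.20 ± 0.09 (0.247) and Psmd10 one of 0.16 ± 0.07 (0.247). The values were 0.14 ± 0.07 for Psme2 (adjusted p = 0.283), 0.14 ± 0.09 for Psmb1 (0.394) and 0.15 ± 0.08 for Psmd14 (0.322). The largest positive value was that of Psmc6, 0.22 ± 0.12 (adjusted p = 0.331). The most negative was that of Psmd9, -0.28 ± 0.12 (adjusted p = 0.239), with KO below WT at 6 of 6 times. Its group means in KO were between 40.2 and 60.7 CPM, and in WT between 42.5 and 65.3 CPM. The changes followed transcript GC share, with a correlation of -0.464 across all genes and -0.597 across the 40 members; the changes with that trend taken out had a median of 0.04.

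At 4 h the median member change was 0.18, and 1 library decided the call. With all libraries no member passed at this time, while 0.0366% of all genes did (0.044% with the GC and length correction). At an unadjusted p under 0.05 there were 16 members (40.0%, beside 23.3% of all genes), 13 higher and 3 lower in KO. With the correction there were 12 of these, 7 higher and 5 lower, beside 20.3% of all genes. DESeq2 called 0 members at this time. KO replicate 1 at 4 h lay with the WT libraries rather than with the other KO libraries for many core genes and for their sum, but not for all. Psma4, for example, was at 160.3 CPM in it and at 272, 350.5 and 314 CPM in the others, against 195.5, 164, 183 and 155 CPM in WT. Psmb3 was at 145 CPM in it and at 253, 251 and 251 CPM in the others, against 158, 138, 151 and 144 CPM in WT. The summed core genes were at 1969 CPM in it and at 2899, 3119 and 2850 CPM in the others, with WT at 1850 to 2095 CPM. For some core genes KO replicate 1 was inside the range of the other KO libraries. Those were Psmb2 (87.7 CPM, others 63.6 to 95.4), Psmb4 (234 CPM, others 203 to 258), Psmb5 (99.5 CPM, others 75.6 to 114) and Psma8 (1.01 CPM, others 0.411 to 2.16).

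Without that library 17 members (42.5%) were past the threshold at 4 h, beside 24.6% of all genes. Leaving out the KO library nearest to WT widens the gap and narrows the KO spread by construction, so these values describe the other 3 KO libraries and are no test of the genotype. Higher in KO were 12, namely Psma1, Psma2, Psma3, Psma4, Psma6, Psma7, Psmb1, Psmb3, Psmb7, Psmc6, Psmd6 and Psme2. The largest change was that of Psmc6, 0.96 ± 0.29, followed by Psmb7 with 0.90 ± 0.24. The 5 lower ones were Psmc1, Psmd2, Psmd3, Psmd9 and Psme3, with changes of -1.03 to -0.58. In the 40 libraries of the other times, 11 of the 12 higher members had their fitted peak between 4 and 12 h, as had 23 of all 40 members. Of the 5 lower ones 4 had it between 20 and 1.5 h, as had 11 of all 40, and Psmc1 had it at 1.56 h. These peaks were not corrected for GC share, whose trend also differed between times of collection. The match of peak and direction is therefore mixed with that trend, and its share over all genes was not counted. The GC trend moved with this contrast. KO replicate 1 had a correlation of 0.517 with GC share and the other KO libraries -0.366, -0.606 and -0.578, against -0.025 to 0.531 in WT. With the correction and without that library 8 members (20.0%) were past the threshold, beside 11.8% of all genes. Psma7 (0.89 ± 0.27), Psmb3 (0.91 ± 0.28), Psmb6 (0.53 ± 0.17) and Psme2 (0.57 ± 0.17) were higher in KO. Psmc1 (-0.57 ± 0.15), Psmd2 (-0.61 ± 0.18), Psmd9 (-0.88 ± 0.28) and Psme3 (-0.89 ± 0.28) were lower. All of these but Psmb6 were also among the 17. By the same uncorrected peaks, the 4 higher ones all peaked between 4 and 12 h. Of the 4 lower ones 3 peaked between 20 and 1.5 h, with Psmc1 again outside. Each library was left out in turn, and this one is described because its values were seen to stand apart.

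**Figure D5:**
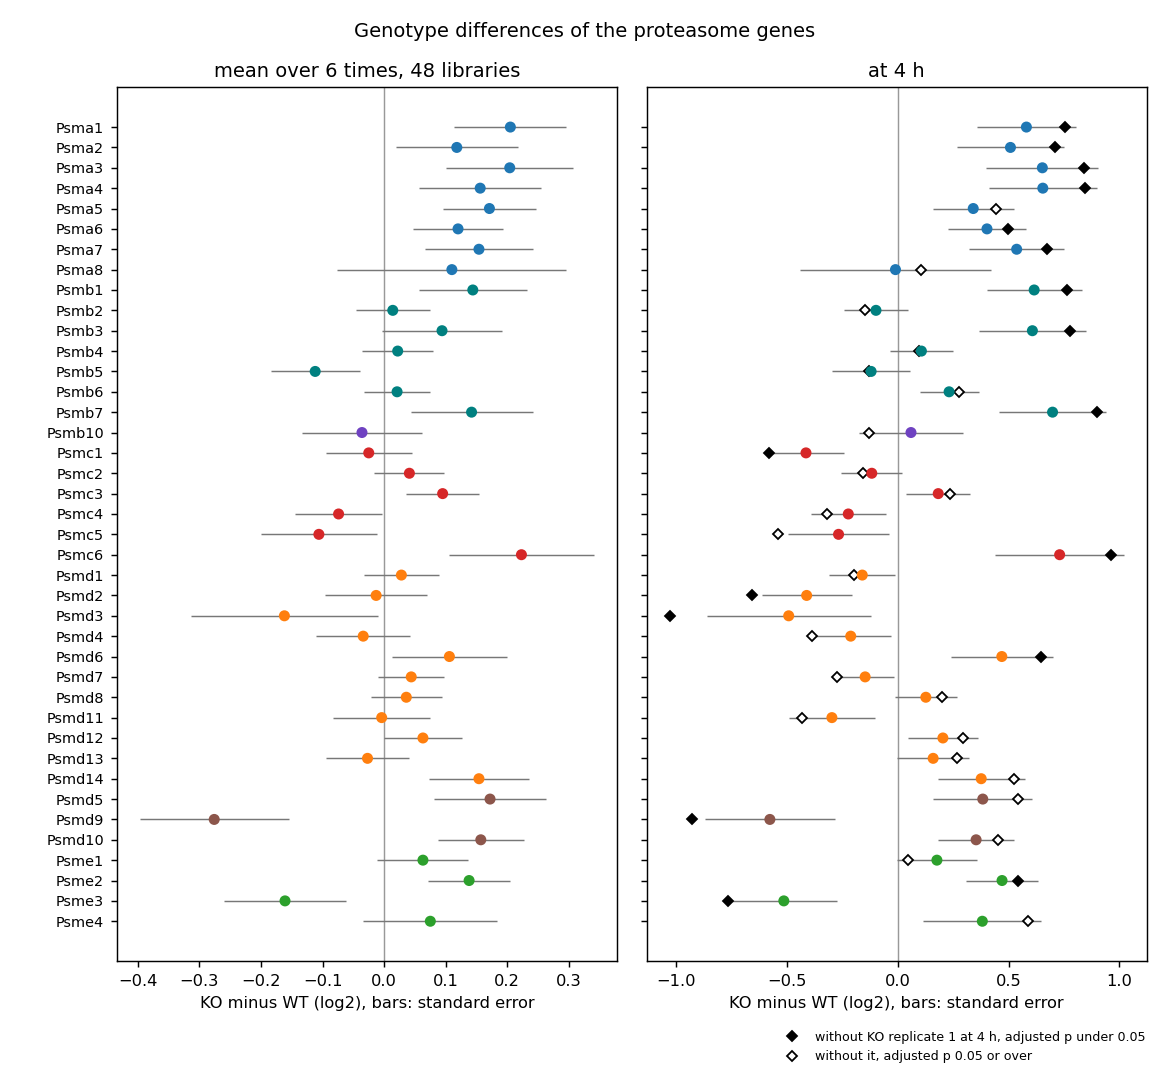
KO minus WT on the log2 scale for each member (colours as in the plot of group means), averaged over the 6 times (left) and at 4 h (right); bars are standard errors over 48 libraries. Diamonds give the 4 h change without KO replicate 1, filled where the adjusted p is under 0.05 (17 members).

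At the other times no member passed, and few genes did: 0.0147% of all at 0 h, 0.022% at 16 h, and 0% at 8, 12 and 20 h. At an unadjusted p under 0.05 there were 0 members at 0, 8 and 12 h, 4 at 16 h (all lower in KO; 10.0%, beside 6.65% of all genes) and 5 at 20 h (all higher; 12.5%, beside 1.84%). At 20 h the median member change was 0.17 with 36 of 40 above 0, and with the GC and length correction it was 0.165, against 0.086 at 4 h. The times were not tested against each other. DESeq2 called 0 members at each of these times. The interaction of genotype and time passed for no member and for 0.00733% of all genes, with 4 members at an unadjusted p under 0.05 (10.0%, beside 3.28%) and 0 by DESeq2. Psmb2, Psmb6 and Psmc2 had the lowest p-values of the interaction (unadjusted p = 0.0279, 0.0432 and 0.0483). Psmb2 was at 64.5, 88.0, 61.1, 84.5 and 65.4 CPM in WT and at 58.5, 56.5 and 53.6 CPM in KO at 16 h, and at 20 h at 55.9, 56.5, 80.4 and 62.4 CPM in WT and 90.8, 65.2, 87.9 and 85.1 CPM in KO. The KO libraries were thus all below WT at the former time and mostly above it at the latter. Psmc2 had means of 105 CPM in WT and 89.2 CPM in KO at 16 h, and of 95.3 and 124.5 CPM at 20 h.

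Genes that act with the proteasome were counted in 9 lists, whose counts for the shared rhythm stand beside 43.7% of all genes. None of their tested genes passed in the genotype mean or at 4 h. Of 8 further proteasome parts and core assembly factors, 5 passed the shared rhythm test. Pomp, which matures the core, peaked at 9.04 h (amplitude 0.21 ± 0.06, adjusted p = 0.0287) and Psmg2, a core assembly chaperone, at 5.57 h (0.19 ± 0.04, 0.00316), while Psmg3, another chaperone of core assembly, peaked at 21.5 h (0.17 ± 0.05, 0.0188). Psmf1, an inhibitor of the core, peaked at 23.1 h with 0.46 ± 0.09 (0.000221). Shfm1, a small 19S subunit outside the rule, peaked at 9.74 h (0.29 ± 0.08, 0.00969), within the hours of the first set of members. Of 8 regulators of proteasome genes 3 passed, a share below that of all genes. These were Nfe2l1 with 0.35 ± 0.07 at 18.9 h (adjusted p = 0.000126), Ddi2, the protease that releases its product, with 0.27 ± 0.05 at 19.8 h (0.000436), and Nfyb, a subunit of the CCAAT-binding factor, with 0.31 ± 0.05 at 7.68 h (3.24e-05). Of 10 genes of inducible subunits and antigen presentation 5 passed, among them Nlrc5, an activator of this program, at 7.55 h (0.35 ± 0.05) and Irf1 at 4.87 h (0.35 ± 0.06). Psmb8 did not pass (amplitude 0.18 ± 0.07 at 10.7 h, adjusted p = 0.075).

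Of 9 targets of NFE2L2 3 passed, with Srxn1 at 0.53 ± 0.06 (peak at 0.94 h). Of 13 genes of ubiquitin handling 5 passed, of 6 ubiquitin and E1 genes 4, of 6 genes of the p97 unfoldase and its cofactors 4, of 9 genes of the COP9 signalosome 4 and of 8 genes of the CCT chaperonin 3. The shares for the NFE2L2 targets, ubiquitin handling and the chaperonin were below that of all genes, and that for the signalosome was near it. The signalosome is built like the 19S lid. Its passing members Cops4, Cops5, Cops6 and Gps1 peaked at 4.32 to 8.37 h. The p97 gene Vcp peaked at 23.1 h (0.17 ± 0.04, adjusted p = 0.00314). In the genotype mean, low p-values that did not pass were those of Cops4 (0.20 ± 0.07, adjusted p = 0.148), Cct4 (0.22 ± 0.09, 0.175) and Pomp (0.23 ± 0.09, 0.182).

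Part of the members also moved together within groups. With group means removed, the median correlation of a member with the mean of the other members over the 48 libraries was 0.47, with 18 of 40 members above 0.5, beside a median of -0.041 and 5.98% above 0.5 for the other genes tested. It was highest for Psmd12 (0.854), Psmb6 (0.827), Psmd8 (0.825) and Psma7 (0.823), and lowest for Psmd3 (-0.284), Psme3 (-0.266) and Psmb10 (-0.264). Of the core rings, the median was 0.70 for alpha and 0.72 for beta, and 0.345 for the ATPases. The means of core and 19S genes correlated at 0.335, and the median correlation over all pairs of members was 0.243. Outside the rule, the highest values were those of Nsfl1c, a p97 cofactor (0.817), Chchd2 (0.79), Dnajc2 (0.784), Phb (0.778), Cox7a2 (0.775), Rexo2 (0.771), Prdx5 (0.77), Hspe1 (0.765), 2310028O11Rik (0.765) and Hprt (0.762). With the GC and length correction the member median was 0.52, with 22 members above 0.5, beside 3.07% of other genes. Only Dnajc2 was among the 10 highest in both, and Ppp2ca (0.86) then led. The libraries share technical trends, so these correlations are a description.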

How the data were processed

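RNA from whole liver was sequenced in 48 libraries. The authors deposited whole-number read counts per gene; CASAVA, STAR 2.4.1d and build mm9 are named in the submitters' processing notes. The counting rule is not stated in these sources. Per the labels' protocols the libraries were poly-A selected with a kit that does not mark strand, so reads of overlapping or antisense genes cannot be told apart. Totals were nearly equal in the table, and how this came about is not given. Albumin was left out of totals and tests. No column of another sample was present. Groups came from the labels. Between libraries of 1 group chi-square per degree of freedom was at least 22.38, so none was a repeat. Members and gene lists were chosen with earlier results of these data known.

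Genes were filtered with edgeR 4.0.16 (R 4.3.3; minimum count 10, minimum total 15; 13646 kept, 8707 removed) and scaled by TMM. Quasi-likelihood models with 12 group means, and with intercept, cosine and sine terms (24 h) for each genotype or shared, were fitted to all 48 libraries. Standard errors of log2 changes were taken from F (the absolute change over the root of F). Amplitudes and peak times, in hours after the first collection, are least-squares fits to log2 CPM (prior count 2). Levels are CPM with TMM factors; the minimum of 1 CPM used plain totals. The alternatives were other scalings, no filter, DESeq2 1.42.0, libraries or times left out, a replicate block, time as a factor and a prior count of 0.5. The GC and length correction, added after seeing the data, took a spline (5 df for GC share, 4 for log2 length, from transcripts of a GRCm38 annotation) out of each library as an offset; 13316 genes had values, 40 members among them. Fits were tested on simulated counts. Named genes were the 3 lowest p-values of each main test and the lowest of each structural group for the shared rhythm and the genotype mean; other members and genes named were chosen after their values were seen. Positions of genes are those of the table in mm9, and promoter sequences are RefSeq's in GRCm38.p6. The values of 1 gene of the related lists are not reported here.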

Additional observations from a re-analysis of the deposited data

Results flagged for a closer look

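In 231 groups of 4 or 5 libraries, over 18 members and 3 summed levels, 13 groups held a library far from the others by Dixon's ratio (5.6%), and chance gives about 1 in 20. The library far from the rest was the highest for Psma2 in WT at 16 h (replicate 2, 136.2 CPM, others 79.6 to 94.97), for Psmc6 in WT at 8 h (replicate 2, 234.3 CPM, others 128 to 145) and at 16 h (replicate 2, 202.8 CPM, others 87.2 to 108), and for Psmb2 in KO at 8 h (replicate 2, 92.67 CPM, others 75.5 to 76.8). It was also the highest for Psmd11 in KO at 8 h (replicate 2, 92.75 CPM), Psmd4 in WT at 16 h (replicate 4, 197.6 CPM) and Psmd10 in WT at 20 h (replicate 2, 14.28 CPM). It was the lowest for Psmb3 in KO at 4 h (replicate 1, 145.1 CPM, others 250.8 to 252.7) and at 20 h (replicate 2, 94.93 CPM, others 144 to 147), and for Psmb1 in KO at 20 h (replicate 2, 128.3 CPM, others 176 to 184). Psmb6 in KO at 12 h (replicate 1, 155.8 CPM), Psmd10 in WT at 0 h (replicate 1, 8.5 CPM) and Psme2 in WT at 4 h (replicate 2, 80.28 CPM) were lowest as well.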

How the results depend on the processing

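The counts of 0 for the genotype mean, the interaction and the rhythm difference stayed at 0 under every alternative run. So did those at each time except 4 h. There 2 members passed without both 16 h groups, beside 4.07% of all genes, a share near that of the members. With the GC and length correction and without KO replicate 1 at 4 h, 8 passed, beside 11.8% of all genes. On leaving out 1 library 0 to 17 passed, the 17 beside 24.6% of all genes. The shared rhythm count was 18 with time as a factor, 22 without a filter on low counts, and 23 to 30 on leaving out 1 library. These counts and the rhythm counts that follow stand here without the share of all genes in the same fit. They do not tell a change of the members from one of all genes. Leaving out 1 library gave 7 to 16 members for the rhythm in WT and 8 to 23 in KO, and KO fell to 7 without the 3 unusual libraries. The median member change was 0.043 to 0.089 on leaving out 1 library. With a minimum of 5 CPM there were 39 members, and with none 41. Of 23 pairs of libraries with the same number and time, 13 correlated above 0.1 (-0.449 to 0.602) and at no time did all, so the numbers were not taken as a pairing; 9 WT libraries correlated best with their own number. With a replicate block 9 members passed in WT, 11 in KO and 27 in the shared rhythm, and 0 in the other tests. The causes of these changes were not tested. At about 12929297 counts a library, Psma8 rests on few reads, and its level has a large counting error.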
